A study of Mus musculus with 10 samples.

Results

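The regions described here are stretches of the mouse genome where a peak of lactylation of histone H3 at lysine 9 (H3K9lc) was called in cardiac fibroblasts given TGF-β, but neither in untreated cells nor in cells given TGF-β after knockdown of hexokinase 1 (HK1). They were selected on measured values. A region had to be listed with the same start and end in 2 tables, one pairing the untreated library with the TGF-β library and one pairing the TGF-β library with the knockdown library. It also had to be marked as a peak in TGF-β only and to hold 20 or more reads in the TGF-β library. Of 44088 H3K9lc regions that had the same coordinates in both tables, 13186 met these conditions. A further 5721 regions met them but were also marked as a peak in the knockdown library, and these serve below as the set most like the 13186.

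Primary cardiac fibroblasts of the mouse were profiled by CUT&Tag, which maps a mark by tethering a DNA-cutting transposase to it through an antibody and sequencing the pieces released. The library called NC came from cells whose label gives no treatment (called untreated here), the library called TGF from cells given TGF-β, and the library called siHK1 from cells transfected with an siRNA against HK1 and then exposed to TGF-β. The legends for these cultures give a dose of 5 ng/ml and an exposure of 24 h. The title of the siHK1 library names the mark but not HK1, and the NC title gives no antibody. The knockdown target and the NC antibody were therefore taken from the tables that name these libraries. Whether the NC and TGF cells received a control siRNA is not given in the sources used here. There was 1 library per condition and antibody, so the values compare libraries and no test between conditions was made. These data hold no RNA or protein, so neither the HK1 knockdown nor the identity of the fibroblasts could be checked against their defining genes.

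Lactylation is the attachment of a lactyl group, derived from lactate, to lysine residues of histones, and it is studied as a link between glycolysis and transcription. HK1 carries out the first step of glycolysis, the phosphorylation of glucose. TGF-β is the main signal that turns resident cardiac fibroblasts into matrix-producing myofibroblasts, acting through SMAD3 and in concert with AP-1 factors such as JUN and with NFAT factors such as NFATC2.

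Much of the sequence under these regions is repeated across the genome. The 6 stretches printed here show the 31-base words that the most regions held in common, chosen after the data were seen, each picked among the regions that held none of the words before it. The word is in capitals and its flanking 35 bases on either side are in lower case, as read from the RefSeq GRCm38 genome at the region with most TGF reads that held the word. Words 2 and 6 are shown from the same region, which held both.

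Word 1, chrX:159121858-159121958 (- strand): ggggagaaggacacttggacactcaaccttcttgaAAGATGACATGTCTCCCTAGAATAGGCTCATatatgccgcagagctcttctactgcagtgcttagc
Word 2, chr4:61768610-61768710 (+ strand): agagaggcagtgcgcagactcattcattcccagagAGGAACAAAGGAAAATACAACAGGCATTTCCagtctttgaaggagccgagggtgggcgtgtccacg
Word 3, chr9:80957846-80957946 (- strand): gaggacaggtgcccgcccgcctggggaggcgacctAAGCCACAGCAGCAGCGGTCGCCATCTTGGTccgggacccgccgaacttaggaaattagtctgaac
Word 4, chr16:78446592-78446692 (+ strand): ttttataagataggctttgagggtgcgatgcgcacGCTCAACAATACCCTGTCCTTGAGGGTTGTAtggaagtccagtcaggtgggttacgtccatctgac
Word 5, chr9:79900636-79900736 (+ strand): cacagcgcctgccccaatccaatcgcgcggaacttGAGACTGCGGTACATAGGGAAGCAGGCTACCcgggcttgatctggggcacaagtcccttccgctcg
Word 6, chr4:61769481-61769581 (+ strand): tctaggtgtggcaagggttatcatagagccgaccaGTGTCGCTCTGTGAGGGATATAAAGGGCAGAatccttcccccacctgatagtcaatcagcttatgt

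Word 1 occurred in 562 of the 13186 regions, word 2 in 444, word 3 in 434, word 4 in 442, word 5 in 317 and word 6 in 300. Each word was spread over 20 or 21 chromosomes, so that the chromosome with most regions of word 1, X, held only 48 of them. At least 1 of the 6 words was found in 2455 regions, which is 18.6% (95% exact interval 17.96 to 19.29). The same words were found in 23.7% of the regions also called in siHK1, in 9.50% of all 74751 H3K9lc regions listed in the TGF and siHK1 table, in 20.1% (19.6 to 20.5) of the 30683 of these with 20 or more TGF reads, and in 23 of 72990 JUN regions. Word 3 has 5784 exact copies on the 21 assembled chromosomes and word 5 has 5701, so the TGF-only regions, counting each once, held 7.50% and 5.56% of these copies. Word 2 has 1359 copies, of which 32.7% lay in TGF-only regions and 62.0% in any listed H3K9lc region.

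The reads at the regions of a word spanned a wide range. The 562 regions of word 1 held 20 to 230 TGF reads (median 35), 4 to 125 siHK1 reads (median 16) and 0 to 10 NC reads (median 1). Those of word 4 held 20 to 170 TGF reads (median 43), 4 to 91 siHK1 reads (median 21) and 0 to 11 NC reads (median 1). All 3 libraries thus gave reads at copies of these words, with TGF the highest and NC the lowest in raw counts. For each 100 TGF reads there were 46.1 siHK1 reads over the regions of word 1, 47.8 over those of word 4 and 40.2 over those of word 5. The share of bases that RefSeq marks as repeats (soft-masked) averaged 98.1% to 99.9% over the regions of the 6 words. Between 79.8% and 96.3% of these regions could not be placed uniquely from their central 100 bp, which is measured for all regions further on.

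The region with most TGF reads aligned uniquely. It lay at Irf7, which encodes interferon regulatory factor 7, a transcription factor of the type I interferon response, at chr7:141263456-141264145 on GRCm38 (690 bp). Irf7 is on the minus strand. Its central 300 bp are printed on the plus strand with coding bases in capitals and intronic bases in lower case, because most of the region lay on coding exons. The rule used its reads in the 3 libraries, so these are given as a description.

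Irf7, chr7:141263651-141263950 (+ strand): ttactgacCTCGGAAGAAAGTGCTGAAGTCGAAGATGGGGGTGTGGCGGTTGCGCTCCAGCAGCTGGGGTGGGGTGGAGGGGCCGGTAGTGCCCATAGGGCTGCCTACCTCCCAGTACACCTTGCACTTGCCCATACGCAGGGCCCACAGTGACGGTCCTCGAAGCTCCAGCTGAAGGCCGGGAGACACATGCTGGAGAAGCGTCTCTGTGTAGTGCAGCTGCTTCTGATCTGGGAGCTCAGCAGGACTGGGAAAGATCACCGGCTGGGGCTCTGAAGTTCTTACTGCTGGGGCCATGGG

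The Irf7 region held 3301 reads in TGF, 4 in siHK1 and 1 in NC. TGF was thus high and both other libraries were at a few reads. On the scale of equal library totals over the listed regions, TGF was 470-fold higher than siHK1 (95% counting interval 183 to 1727) and 165-fold higher than NC (29.6 to 6516). The log2 ratio of siHK1 over TGF (0.5 added to each count, as in all log2 ratios here) was -8.71, the lowest of the 13186 regions. The lowest coordinate of the Irf7 region was also that of coding exon 9 in GENCODE M21 (141263456 to 141263574), and the region covered that exon and coding exon 8 (141263659 to 141264048) whole, ending 97 bp beyond the latter. Coding bases made up 509 of its 690 bp (73.8%). Only 3 of the 13186 regions had the lowest coordinate of a coding exon as their first base, and they were assigned to Irf7, Ripk2 and Mir6388, beside 6 of the 30683 listed regions with 20 or more TGF reads. No other H3K9lc region was listed within the gene (chr7:141262706-141266481). A JUN region at the other end of the gene held 16 TGF and 7 siHK1 reads, a SMAD3 region held 8 and 2, and no NFATC2 region was listed there. The central 100 bp of the Irf7 region aligned uniquely (mapping quality 60). The part of its overlap with coding exons in the TGF reads, and so in the 470-fold value, was not tested.

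**Figure D1:**
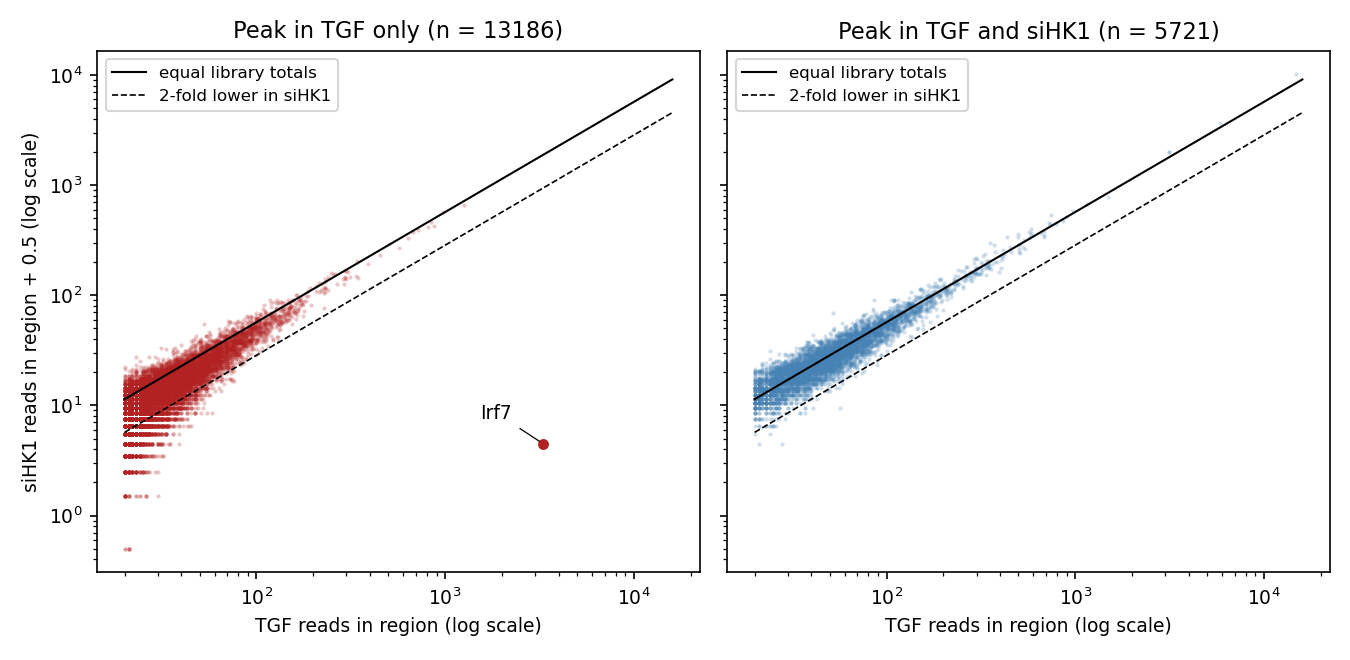
Reads per region in the siHK1 library (0.5 added) against the TGF library, both on log axes, for the 13186 regions called in TGF only (left) and the 5721 called in TGF and siHK1 (right). The solid line marks equal library totals and the dashed line a 2-fold lower siHK1 count; the Irf7 region, with 3301 TGF and 4 siHK1 reads, lies far from the cloud, which follows the solid line at high counts.

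The other regions with most TGF reads did not share the near absence of siHK1 reads. A region in and upstream of Sp110, which encodes an interferon-induced nuclear body protein, held 1259 TGF, 657 siHK1 and 52 NC reads. One at Sp140, a related nuclear body protein, held 677, 374 and 32, one in Mid1, a ubiquitin ligase bound to microtubules, held 973, 566 and 31, and one in Sfi1, a centrin-binding protein of the centrosome, held 715, 388 and 30. Although none of these was marked as a peak in siHK1, its count there was close to the count that the library totals would give. The centres of the Mid1 and Sp140 regions aligned equally well elsewhere, so their reads cannot be placed at these genes with certainty. Over the 9 regions that followed Irf7 in TGF reads, siHK1 had 46.7 to 58.2 reads per 100 TGF reads, against 57.0 over all listed regions, and NC had 23 to 52 reads. Their log2 ratio of siHK1 over TGF ran from -0.28 (Gm26504) to 0.03 (Mid1). The remaining ones were assigned to Vmn1r77, a pheromone receptor gene (870, 426 and 31 reads), Slc16a14, a member of the monocarboxylate transporter family (843, 467 and 35), A530032D15Rik (808, 415 and 23), Zfp992 (633, 332 and 28) and Gm26504 (569, 266 and 28). The centres of the A530032D15Rik, Slc16a14, Gm26504 and Zfp992 regions had mapping qualities of 3, 18, 38 and 48, below the 60 of a unique alignment. Of the 10 regions with most TGF reads, 4 lay within 648 kb of chromosome 1 (chr1:84962371-85610470), between the regions assigned to Slc16a14 and Sp140. That stretch held 55 TGF-only regions among 201 listed ones, beside 17.6% of all listed regions, and 68 more that were also called in siHK1, beside 5721 of all 74751. Of the 55, 37 had a central sequence that aligned equally well elsewhere, beside 44.3% of all TGF-only regions.

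Across all 13186 regions, the TGF library held a median of 30 reads (lowest 20, highest 3301), the siHK1 library 13 (0 to 657) and the NC library 1 (0 to 52). The regions also called in siHK1 held medians of 47, 25 and 2 reads. Summed over the TGF-only regions there were 501892 TGF, 213181 siHK1 and 15620 NC reads. The table totals were 2490853 reads in TGF and 1419023 in siHK1 over 74751 regions, and 2313288 in TGF and 115572 in NC over 65853 regions. These totals cover listed regions only and the depths of the libraries are not known from them. The intervals given here are exact binomial and cover counting error only.

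The rule chose regions by the absence of an siHK1 peak, so their lower siHK1 reads are a description. For each 100 TGF reads, siHK1 had 42.5 reads over the TGF-only regions, 55.5 over the regions also called in siHK1 and 57.0 over the whole table. The log2 ratio of siHK1 over TGF had a median of -0.45 in the TGF-only regions (quartiles -0.77 and -0.17) and -0.06 in those also called in siHK1, beside -0.14 in all 30683 listed regions with 20 or more TGF reads. In most regions siHK1 reads were thus reduced rather than missing. A count of 0 in siHK1 was found in 6 regions, which is 0.046%, beside 1.84% of all listed regions. The siHK1 count was at or above 12, the median of called siHK1 peaks, in 7439 regions (56.4%). That share was 78.0% in listed regions with 20 or more TGF reads, 94.6% in those also called in siHK1 and 36.9% in all listed regions. A siHK1 ratio 2-fold or more lower was found in 1924 regions (14.6%), beside 13.7% of all listed regions and 6.6% of all listed regions with 20 or more TGF reads, from the same contrast the rule used. A ratio 4-fold or more lower was found in 137 regions (1.04%) and 8-fold or more lower in 19 (0.14%), beside 2.98% and 1.10% of all listed regions. Of the listed regions with 20 or more TGF reads, 141 and 19 were that low.

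The difference between the libraries was smaller where there were more reads. In TGF-only regions with 20 to 29 TGF reads (6431 regions) siHK1 had a median of 9 reads and the median log2 ratio was -0.52. It was -0.45 with 30 to 49 reads (4562 regions), -0.34 with 50 to 99 reads (1846 regions) and -0.23 with 100 or more (347 regions). The ratio therefore lay nearer to equal totals in each deeper band. A ratio 2-fold or more lower was seen in 19.7% of regions in the first band and in 0.288% in the last, where Irf7 was the region concerned. All listed regions moved the same way, with 11.6% in the first band and 0.044% in the last, and median ratios of -0.21 and -0.05. Of the 2193 regions with 50 or more TGF reads, the lowest ratio after Irf7 was -1.97, with 58 TGF, 8 siHK1 and 2 NC reads. This distal intergenic region was assigned to Npbwr1, a neuropeptide receptor gene, 96419 bp from the start site. The centre of that region aligned equally well elsewhere. Just inside the limit, the 912 regions with 20 TGF reads had medians of 7 siHK1 reads and 408 bp, and just outside it, the 1053 with 19 TGF reads had medians of 7 siHK1 reads and 392 bp.

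The regions with the lowest ratios besides Irf7 were shallow ones and were chosen after their values were seen. Regions assigned to Phex, Khdrbs2, Olfr360 and 1700049E17Rik2 held 21 TGF and 0 siHK1 reads each, so that TGF was at least 3.99-fold higher, taking 3 counts per library as the floor. Those assigned to Isl2 and Mir6370 held 20 and 0, at least 3.798-fold. The Mir6370 region was distal intergenic, 404 kb from the start site, and the centre of the 1700049E17Rik2 region aligned equally well elsewhere. A region assigned to Glis3, which encodes a zinc finger transcription factor, held 30 TGF reads, 1 siHK1 read and 1 NC read, a 17.1-fold higher TGF count with an interval of 2.84 to 697.

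The NC library gave far fewer reads in listed regions than the TGF library, 4.996 for each 100 TGF reads over their table. Equal totals would therefore give 0.9992 NC reads at a region with 20 TGF reads. NC had no read in 5003 of the TGF-only regions (37.9%, interval 37.1 to 38.8), 1 read in 4297, 2 reads in 2224 and 3 or more in 1662 (12.6%). In regions also called in siHK1, 21.7% had no NC read and 29.9% had 3 or more. Among all 44088 regions with shared coordinates these shares were 56.0% and 8.69%, and among the 19252 with 20 or more TGF reads 32.4% and 19.1%. The NC library was thus at a few reads or none at most regions of each of these sets. Peaks called in NC held a median of 1 read themselves, and 62.1% of the TGF-only regions held at least that. The share was 78.3% in regions also called in siHK1, 44.0% in the 44088 regions and 67.6% in the 19252. Summed over the regions, NC had 3.11 reads per 100 TGF reads in the TGF-only regions and 3.98 in those also called in siHK1. The log2 ratio of TGF over NC had a median of 0.36 in the TGF-only regions and 0.28 in those also called in siHK1, and the summed reads gave 0.68 and 0.33. With the regions at 0 NC reads set to their bound at 3 counts, the medians were -0.55 and -0.13, so the sign of the median rests on how a count of 0 is read. It rests on the scaling too, as the TGF-only median was 1.19 when centred on regions with a peak in both libraries and 4.68 without scaling. A TGF over NC ratio 2-fold or more higher was found in 5303 TGF-only regions (40.2%), beside 14.7% of all listed regions of that table and 34% of those with 20 or more TGF reads, again from a contrast the rule used. NC had 0 reads in 5003 of these 5303. Which of these regions lacked the mark in untreated cells and which were not detectable at so few reads cannot be told apart.

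**Figure D2:**
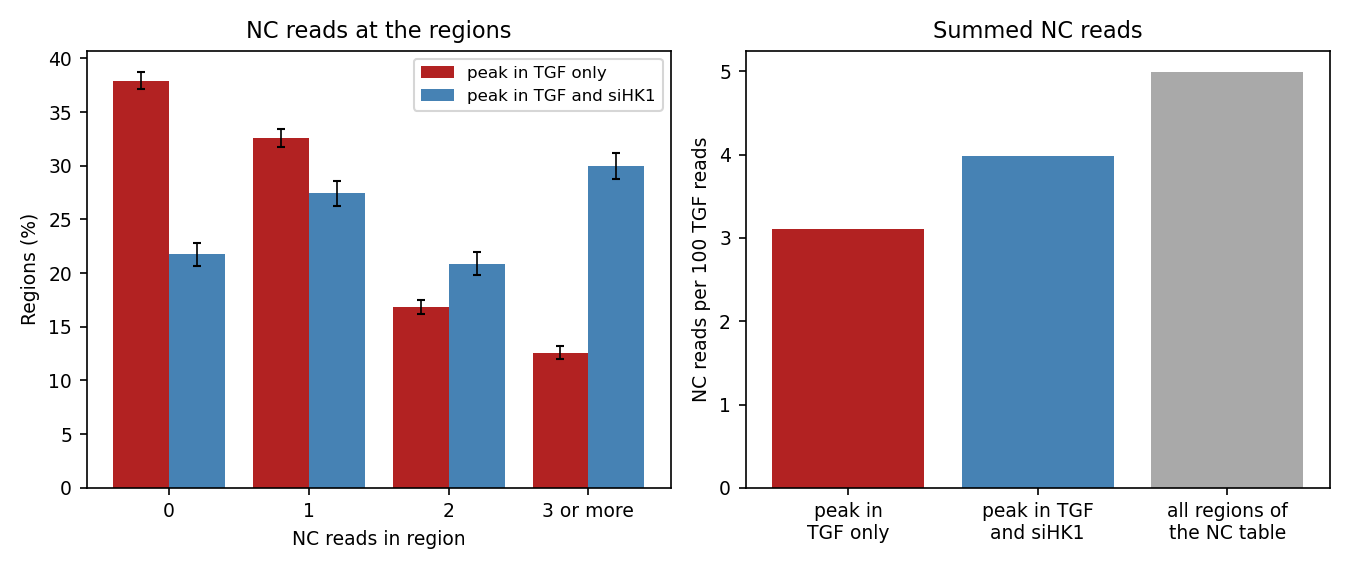
Left, share of regions (in percent, with 95% exact intervals) by the number of NC reads for regions called in TGF only and in TGF and siHK1; right, summed NC reads per 100 TGF reads. NC had no read in 37.9% of the TGF-only regions, and 3.11 reads per 100 TGF reads over all of them against 4.996 over the table.

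Most TGF-only regions were distal intergenic, as were most regions of the other H3K9lc sets. The median width of TGF-only regions was 517 bp (interval 512 to 522), beside 665 bp in regions also called in siHK1, 363 bp in all listed H3K9lc regions, 592 bp in those with 20 or more TGF reads and 446 bp in JUN regions, and their median GC content was 49.2%, beside 50.1% in regions also called in siHK1. By the authors' annotation 8991 regions were distal intergenic (68.2%, interval 67.4 to 69.0), 2809 intronic (21.3%), 573 exonic (4.35%) and 709 at promoters, within 3 kb of a start site (5.38%, interval 4.998 to 5.776). In regions also called in siHK1, 65.7% were distal intergenic and 5.58% at promoters, in all listed H3K9lc regions 65.3% and 6.78%, and in those with 20 or more TGF reads 66.9% and 5.501%. In the JUN libraries of the same cells, by contrast, 32.9% of listed regions were distal intergenic and 25.6% at promoters. The median distance from a TGF-only region to the nearest start site was 48.3 kb, and 4482 regions (34.0%) were more than 100 kb away.

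**Figure D3:**
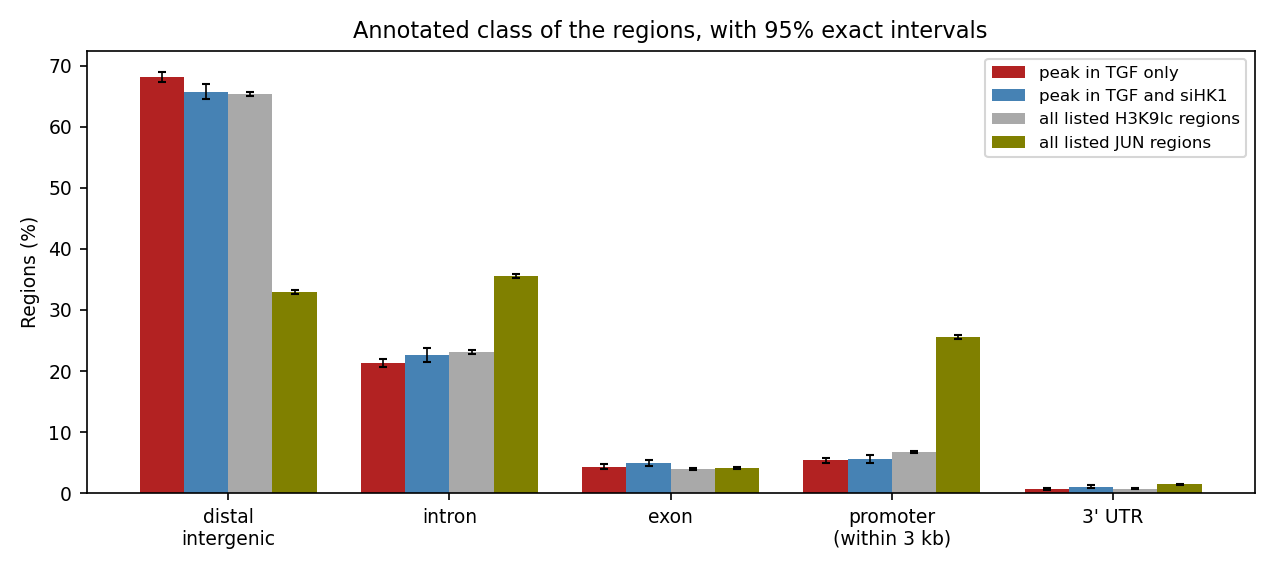
Share of regions (in percent, with 95% exact intervals) in each annotated class for regions called in TGF only, in TGF and siHK1, all listed H3K9lc regions and all listed JUN regions. The 3 H3K9lc sets have 65.3% to 68.2% distal intergenic regions, against 32.9% of JUN regions.

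The sequence under the regions could often not be placed uniquely. The central 100 bp aligned equally well to another place in the genome (mapping quality 0 by minimap2) in 5841 TGF-only regions, which is 44.3% (interval 43.4 to 45.1). The share was 45.2% in regions also called in siHK1, 27.8% in all listed H3K9lc regions, 43.4% in those with 20 or more TGF reads and 2.09% in JUN regions. Soft-masked repeats made up on average 65.4% of the bases of TGF-only regions and 15.4% of JUN regions. With both sets limited to 20 to 39 TGF reads, the share with repeated centres was 40.5% (interval 39.5 to 41.5) in TGF-only regions and 36.2% (34.2 to 38.3) in those also called in siHK1, which turns the direction of the difference between these sets. Within the TGF-only regions that share was 36.8% with 20 to 29 reads, 49.5% with 30 to 49, 55.4% with 50 to 99 and 55.3% with 100 or more. In those also called in siHK1 it was lower in each band, at 32.7%, 44.2%, 52.5% and 48.6%. The log2 ratio of siHK1 over TGF had a median of -0.40 in the 5841 regions with repeated centres and -0.52 in the 4438 whose centres aligned uniquely (mapping quality 60), with medians of 32 and 27 TGF reads. How the authors treated reads with several placements is not given in the sources used here, and its part in the counts was not tested.

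**Figure D4:**
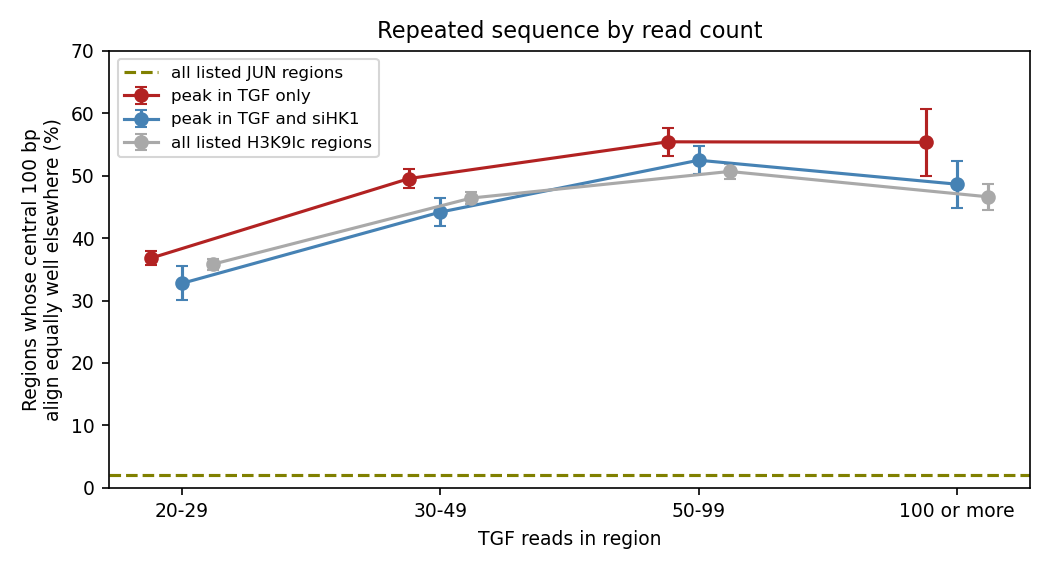
Share of regions (in percent, with 95% exact intervals) whose central 100 bp align equally well elsewhere, by the number of TGF reads in the region. In TGF-only regions it runs from 36.8% at 20 to 29 reads to 55.3% at 100 or more, and the dashed line marks 2.09% for JUN regions.

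The regions were assigned to 5517 genes, of which 2935 had a single region and 25 had 20 or more. The genes with most regions were 5730507C01Rik with 100 regions over 1539 kb of chromosome 12, 1700030C10Rik with 91, 2410018L13Rik with 56 and Gm4425 with 54, all on chromosome 12, and Btbd35f10 with 46 on chromosome X. Of the 258 listed regions of 5730507C01Rik, 100 were thus TGF-only, with 3579 TGF, 1576 siHK1 and 98 NC reads in sum. The share with repeated centres among the regions of these 5 genes ran from 38.5% (1700030C10Rik) to 70.4% (Gm4425). Per megabase, chromosome 7 had most TGF-only regions (8.11), followed by chromosome 12 (6.75) and X (6.71), and chromosome Y had fewest (0.480). As a share of the listed regions these 4 chromosomes came in another order, with 24.3% on chromosome Y (44 of 181), 21.8% on 12, 19.7% on 7 and 17.95% on X, beside 17.6% over all chromosomes.

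Of 109 genes in lists on TGF-β signalling, matrix, contraction, AP-1, NFAT, interferon and glycolysis, together with 4 other genes that the study follows, 61 had any listed H3K9lc region and 24 had a TGF-only region (39.3%), beside 42.5% of all 12994 genes with a listed region. Among their 294 listed regions 46 were TGF-only (15.6%), beside 17.6% of all listed regions. In the 46, log2 ratios of siHK1 over TGF had a median of -0.47, beside -0.45 in all TGF-only regions, and 6 of the 46 were 2-fold or more lower, beside 14.6% of all TGF-only regions. The listed genes thus had TGF-only regions in a share close to that of all genes, and 4 of these 46 regions were at promoters.

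Of the TGF-β signalling genes 4 of the 14 with a listed region had a TGF-only one, with 7 of their 73 listed regions (28.6% and 9.59%, beside 42.5% and 17.6% over all genes). Among these signal transducers, regions were assigned to Smad3, the effector of TGF-β receptors (84 TGF, 50 siHK1 and 2 NC reads, 111 kb from the start site), Smad4, its common partner (22, 9 and 1), Smad6, an inhibitory SMAD (49, 21 and 1), and Bambi, a decoy receptor (37, 13 and 0). The Smad3 region was the only one of these with a siHK1 ratio above equal totals (0.07). Of the matrix genes 5 of 16 had a TGF-only region, with 8 of 71 listed regions (31.2% and 11.3%). Col5a2, a fibrillar collagen chain, had 62, 24 and 1 reads 109 kb from the start site. Col3a1 had 31, 10 and 0, Col1a2 20, 7 and 1, Lox, the collagen cross-linking enzyme, 21, 11 and 0, and Postn, the matrix protein periostin, 22, 12 and 2. None of these 5 regions was at a promoter. The centres of the Smad4, Bambi, Col1a2 and Lox regions aligned equally well elsewhere, which leaves the place of their reads uncertain. That of the Col3a1 region had a mapping quality of 19. No TGF-only region (0 of 12 listed, beside 17.6% over all genes) was assigned to the 11 contractile genes, of which 6 had a listed region.

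Fos, which encodes a partner of JUN in AP-1, had a region 26.6 kb from its start site with 116 TGF, 55 siHK1 and 1 NC reads. A region assigned to Nfatc2, 111 kb from its start site in distal intergenic sequence, had 46, 23 and 0, and Rcan1, an inhibitor of calcineurin and a target of NFAT, had 35, 11 and 2 reads 2.945 kb from its start site, at a log2 ratio of -0.81. Besides Irf7, the interferon list gave Mx1, an antiviral GTPase, with 23, 8 and 1 reads at the start site, and Irf8 with 23, 11 and 1 at 104 kb from its start site. Both held far fewer reads than Irf7.

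Of the glycolysis and lactylation genes, 5 of the 8 with a listed region had a TGF-only one, and 14 of their 53 listed regions were TGF-only (62.5% and 26.4%, beside 42.5% and 17.6% over all genes), with a median log2 ratio of -0.56. Hk1, the targeted gene, had a region 1.705 kb from its start site with 26 TGF, 4 siHK1 and 0 NC reads, a log2 ratio of -1.75. Pfkp, a phosphofructokinase, had 59, 28 and 3 reads 235 kb away, Slc16a1, a lactate transporter, 46, 26 and 0, Ep300, an acetyltransferase that can also place lactyl groups, 26, 12 and 0, and Hdac2, a histone deacetylase, 29, 14 and 0. The centres of the Pfkp and Hdac2 regions aligned equally well elsewhere. Of these 5 regions the one at Hk1 had the lowest siHK1 count, on few reads in every library. All 4 other genes that the study follows had a TGF-only region (100%, beside 42.5% of all genes). They had 10 TGF-only regions among 34 listed (29.4%, beside 17.6% over all genes). The strongest of each held 88, 42 and 2 reads (Axin2, a regulator of Wnt signalling), 43, 13 and 0 (Smyd3, a lysine methyltransferase), 23, 9 and 1 (Slc40a1, the iron exporter ferroportin) and 23, 6 and 2 (Cdk1, the cell cycle kinase).

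Of 25 marker genes of cell types, 18 had a listed region and 7 of these a TGF-only one (38.9%, beside 42.5% of all genes), and 12 of their 68 listed regions were TGF-only (17.6%, the share over all genes). Among markers with a listed region these were 3 of 7 for fibroblasts, 1 of 4 for cardiomyocytes, 2 of 3 for endothelium, 1 of 3 for immune cells and 0 of 1 for smooth muscle and pericytes. Fibroblast markers Lum, Thy1 and Ddr2 had such regions, with 31, 24 and 69 TGF reads and 4, 5 and 33 siHK1 reads, as did Ryr2 of cardiomyocytes (38 and 11), Cdh5 and Tek of endothelium (27 and 11, 33 and 14) and Adgre1 of macrophages (27 and 11). The 5 TGF-only regions of fibroblast markers had a median log2 ratio of -1.34, and 3 of them were 2-fold or more lower. Over all 12 marker regions these values were -0.57 and 4, beside -0.45 and 14.6% over all TGF-only regions. The centres of the Lum, Ddr2 and Tek regions aligned equally well elsewhere. The part of these cell types in the results was not tested.

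At promoters within 1 kb of a start site there were 352 TGF-only regions (2.67%), beside 3.41% of all listed regions and 2.53% of those with 20 or more TGF reads. Their median log2 ratio was -0.47, and 66 of them (18.8%) were 2-fold or more lower in siHK1. At all listed regions within 1 kb of a start site 18.3% were that low, and at those with 20 or more TGF reads 10.2%, from the contrast the rule used. The Irf7 region is counted here by the authors' annotation, which puts it 0.986 kb from a start site. It lay on coding exons 8 and 9 and ended at 141264145, whereas the minus-strand gene begins at 141266481. After Irf7 and Sp140, most TGF reads were found at Iqce, a cilium protein (169 TGF, 76 siHK1 and 6 NC reads), at a second Sfi1 region (161, 81 and 5), Pnpla1, a lipase of the skin barrier (151, 85 and 3), Gm5105 (141, 60 and 5) and Muc3, a membrane mucin (120, 66 and 4). The regions at Zfp936, Abhd12b and 4930529C04Rik held 80 to 85 TGF reads and 37 to 44 siHK1 reads. Apart from Irf7, the 9 promoter regions named had ratios between -0.41 and -0.01.

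The JUN, SMAD3 and NFATC2 libraries were not used in the selection. At least 1 bp was shared with a listed JUN region in 609 TGF-only regions (4.62%, interval 4.27 to 4.99), with a SMAD3 region in 673 (5.10%, 4.73 to 5.49) and with an NFATC2 region in 685 (5.19%, 4.82 to 5.59). Any of the 3 was found at 1396 regions (10.6%) and all 3 at 172 (1.30%), beside 12.3% and 2.18% of all listed H3K9lc regions and 15.4% and 3.60% of those with 20 or more TGF reads. Factor regions were thus absent from most H3K9lc regions of each of these sets. Among regions also called in siHK1 the shares were 8.58%, 12.9% and 13.1%, and among all listed H3K9lc regions 5.92%, 6.50% and 6.58%, or 6.95%, 9.14% and 9.36% with 20 or more TGF reads. With both sets limited to 20 to 39 TGF reads (9486 and 2218 regions), the JUN shares were 4.91% (interval 4.49 to 5.37) and 6.31% (5.34 to 7.41), the SMAD3 shares 4.78% and 8.84%, and the NFATC2 shares 4.63% and 8.97%. The difference between the sets thus narrowed by more than 1.5 times for all 3 factors within this range, and no test of it was made. Reads were not alike even there, since 6431 of the TGF-only regions but 1142 of the others held 20 to 29 TGF reads, and their median widths were 466 and 532 bp.

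Of the 620 JUN regions that met a TGF-only region, 600 held 10 or more reads over both JUN libraries. Their log2 ratio of siHK1 over TGF had a median of 0.02 (interval -0.04 to 0.07), beside -0.05 for all 70250 such JUN regions. JUN reads at these places were close to equal totals in the siHK1 library. The median was -0.067 when centred on JUN regions with a peak in both libraries, on the other side of 0, and -0.88 without scaling. A JUN ratio 2-fold or more lower was found in 42 of the 600 (7%, interval 5.09 to 9.34), beside 10.5% of all, and 2-fold or more higher in 25 (4.17%), beside 6.01% of all. Where the centre of the TGF-only region aligned uniquely, the median was 0.03 over 444 JUN regions.

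For SMAD3, 414 regions at TGF-only regions had 10 or more reads and a median ratio of -0.24 (interval -0.36 to -0.11), beside -0.55 (-0.60 to -0.45) at regions also called in siHK1 and 0.11 for all 16872. A ratio 2-fold or more lower was found in 90 (21.7%, interval 17.9 to 26.0), beside 20% of all, and higher in 79 (19.1%, 15.4 to 23.2), beside 28.2% of all. That direction was not kept where the centre of the TGF-only region aligned uniquely, with a median of 0.53 (interval 0.31 to 0.72) over 196 SMAD3 regions, a subset examined after the data were seen. For NFATC2, 348 regions had a median of -0.30 (interval -0.42 to -0.22), beside -0.40 (-0.48 to -0.29) at regions also called in siHK1 and -0.22 for all 12423, with 79 lower 2-fold or more (22.7%), beside 23.6% of all, and 31 higher (8.91%), beside 13.2% of all. Where the centre aligned uniquely, the NFATC2 median was -0.20 over 172 regions, with an interval of -0.27 to 0.06 that spans 0. SMAD3 and NFATC2 counts were low, with medians of 8 and 6 TGF reads at these regions against 60 for JUN.

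**Figure D5:**
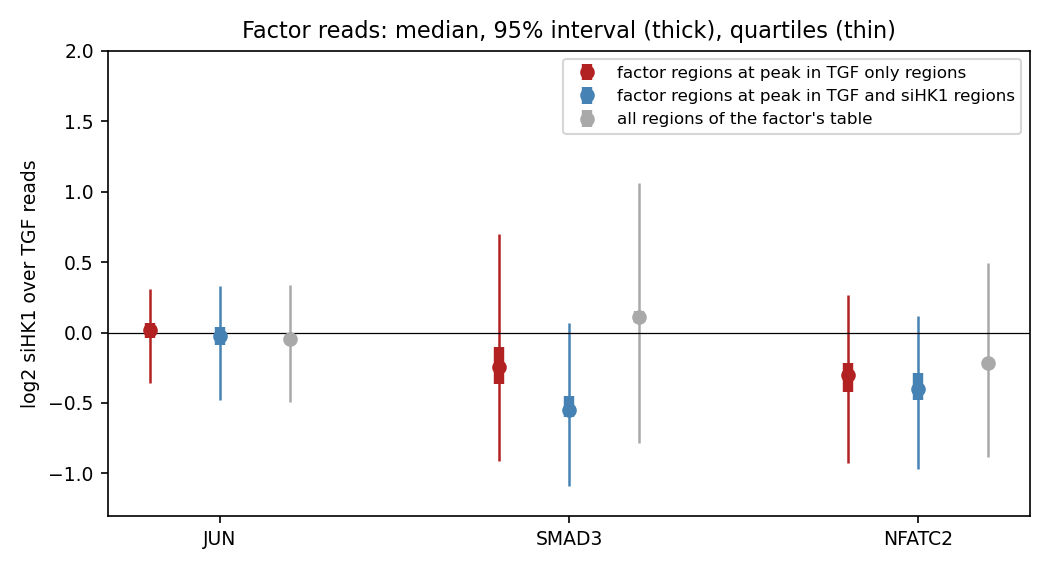
Median log2 ratio of siHK1 over TGF reads of JUN, SMAD3 and NFATC2 in factor regions with 10 or more reads that met an H3K9lc region called in TGF only, one called in TGF and siHK1, and in all listed factor regions, with 95% exact intervals (thick) and quartiles (thin). JUN medians lie between -0.05 and 0.02 in the 3 sets, while SMAD3 medians are -0.24 at TGF-only regions, -0.55 at those also called in siHK1 and 0.11 over all.

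The TGF-only regions with most JUN reads were weak in H3K9lc, except one. The region in Mid1, whose centre aligned equally well elsewhere, held 1153 JUN reads in TGF and 325 in siHK1, a log2 ratio of -0.93. The region assigned to Arsi held 981 and 480 JUN reads, with 24 TGF, 13 siHK1 and 0 NC reads of H3K9lc. The one at Oxsr1, a kinase of the response to osmotic stress, held 870 and 487 JUN reads, with 20, 8 and 1 of H3K9lc. Those of Tmem230, a membrane protein, and Ubr2, a ubiquitin ligase, held 659 and 341, and 574 and 332 JUN reads, each with 21 TGF reads of H3K9lc. Outside Mid1, the JUN ratio ran from -0.14 (Arsi) to 0.10 (Ubr2). The central 200 bp of the Oxsr1 and Ubr2 regions are printed on the plus strand because they show the AP-1 motif, TGANTCA, in capitals. The Mid1 and Tmem230 regions did not hold these letters in their central 200 bp.

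Oxsr1, chr9:119265833-119266032 (+ strand): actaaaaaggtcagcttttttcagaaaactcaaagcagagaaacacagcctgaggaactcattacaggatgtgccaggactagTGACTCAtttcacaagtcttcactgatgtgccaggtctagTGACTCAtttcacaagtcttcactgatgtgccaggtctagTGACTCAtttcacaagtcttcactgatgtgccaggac
Ubr2, chr17:47065031-47065230 (+ strand): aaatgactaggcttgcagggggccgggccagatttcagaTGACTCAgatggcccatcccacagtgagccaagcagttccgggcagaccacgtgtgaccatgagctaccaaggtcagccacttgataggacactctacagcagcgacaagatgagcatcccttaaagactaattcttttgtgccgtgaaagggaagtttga

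For SMAD3 and NFATC2, the regions with most reads included a region of chromosome Y assigned to 1700020D14Rik (707 SMAD3 and 518 NFATC2 reads in TGF, 376 and 264 in siHK1, and 21 TGF reads of H3K9lc), whose centre aligned equally well elsewhere. They also included the Sfi1 regions, which held 301 and 251 SMAD3 reads in TGF and 131 and 106 in siHK1. NFATC2 reads were highest after 1700020D14Rik in regions assigned to Tyrp1 (267 in TGF and 178 in siHK1) and Apba2 (256 and 125). The centre of the Apba2 region had a mapping quality of 12.

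Motifs were searched on both strands in the central 200 bp. The AP-1 motif was found in 6.71% of TGF-only regions (interval 6.29 to 7.15), in 6.97% of those also called in siHK1, in 6.26% of all listed H3K9lc regions and in 29.2% of JUN regions. An NFAT motif, TGGAAA, was found in 14.8% of TGF-only regions (interval 14.2 to 15.4), in 11.2% (10.4 to 12.1) of those also called in siHK1, in 15.3% of all listed and in 13.5% of those with 20 or more TGF reads. A SMAD motif, CAGACA, was found in 17.9%, beside 18.8%, 19.2% and 18.2% in the same sets. A motif of interferon regulatory factors, searched as 2 copies of GAAA separated by 2 bases, was found in 176 TGF-only regions (1.33%, interval 1.15 to 1.55), beside 0.909% (0.68 to 1.19) of those also called in siHK1, 1.501% of all listed and 1.22% of those with 20 or more TGF reads. A match is a description of the letters and not of binding.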

How the data were processed

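H3K9lc, JUN, SMAD3 and NFATC2 CUT&Tag libraries of mouse cardiac fibroblasts, 1 per condition, were read from 5 deposited tables. Each holds, for regions merged over a pair of libraries, the raw read count that the authors obtained per library and a 0 or 1 mark for a called peak. The study's methods name Bowtie2, MACS2 and GRCm39, whereas the submitters' processing notes name BWA 0.7.12 and mm10. Transcript coordinates in the tables were checked against GENCODE M21 on GRCm38: all 17995 transcripts found had the same coordinates, so positions are given on GRCm38, counted from 1.

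The tables also hold the authors' own means, log2 ratios, p-values and calls for each pair, which were not used. A further table of a TGF library whose labels give no antibody, and 2 columns beside it of a library that is no sample of the series, were not used. Groups were taken from the library titles.

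From the deposited counts, log2((b + 0.5)/(a + 0.5)) was computed and scaled to equal totals over the listed regions of a table. A 2-fold ratio was counted as lower or higher, for factors only with 10 or more reads over both libraries. As a siHK1 peak keeps identical coordinates only if it adds no bases to the TGF peak, regions also called in siHK1 are a part of all shared peaks. Shares carry exact (Clopper-Pearson) and medians exact order-statistic 95% intervals, covering counting error only. PCR reads are not independent molecules. Repeats, GC content, motifs and 31-base words were read from RefSeq GRCm38.p6 (sequences shown leave out chromosome 18), and the central 100 bp were aligned with minimap2 2.31. Scripts ran in Python 3.11 with pandas 2.3.3, scipy 1.17.1 and pysam 0.24.0, and the ratio was tested on simulated data.

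Regions named were the 10 with most TGF reads, the 10 with most within 1 kb of a start site, the strongest of each gene in fixed lists, and those with most JUN (5), SMAD3 (3) or NFATC2 (3) reads. The members and lists were chosen with earlier results of these data known. Alternatives covered the read minimum, the match of coordinates, scaling, pseudocount, overlap rule and motif window.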

Additional observations from a re-analysis of the deposited data

How the results depend on the processing

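No paired analysis was possible because there is 1 library for every condition, and for the same reason no replicate could be left out. Of 62 alternative values for 29 results, 17 stayed within the interval of the value reported (or, for the number of regions, within 1.5 times) and 45 did not. The cause of a change was not tested unless the setting itself gives it. Those without the NC library or the siHK1 library, with 60 reads, with a mapping quality under 20, and with 40 reads for alignment and words were chosen after seeing the data, as were the measures of alignment and words themselves.

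The number of regions was 28764 with 10 or more TGF reads, 3700 with 40, 1391 with 60 and 37242 with no minimum. It was 27530 by a rule without the siHK1 library, and between 13142 and 16013 under the other alternatives. For siHK1 over TGF the median log2 ratio was -0.52 centred on regions with a peak in both, -1.26 without scaling, -0.41 with a pseudocount of 1 and -0.36 with 40 reads. The ratio of TGF over NC was 1.19 centred, 4.68 without scaling, 0.017 with a pseudocount of 1 and 0.43 with 60 reads. The factor ratio without scaling was -0.88 (JUN), -0.74 (SMAD3) and -1.002 (NFATC2), and centred it was -0.067 for JUN, on the other side of 0.

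With the midpoint of the region required inside the factor region, the JUN, SMAD3 and NFATC2 overlaps were 3.66%, 3.19% and 2.82%. Within 1 kb they were 6.08%, 7.90% and 8.86%, and with 40 reads 3.86%, 5.95% and 6.65%. Promoters made up 2.67% within 1 kb and 4.51% with 40 reads, when the median width was 739 bp. In whole regions the AP-1, NFAT, SMAD and IRF motifs were found in 17.5%, 34.4%, 39.9% and 4.41%. With 40 reads the first 3 were found in 6.24%, 16.8% and 15.6%. With 40 reads 54.1% of centres aligned equally well elsewhere and 26.9% of regions held a word, and 53.2% had a mapping quality under 20.

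With both sets limited to 20 to 39 TGF reads, TGF-only regions minus those also called in siHK1 gave -66 bp in median width, -1.40 percentage points in JUN overlap, -4.06 in SMAD3 overlap, -4.34 in NFATC2 overlap, 4.23 in centres that aligned equally well elsewhere and -2.16 in words. The last but one was -0.92 over all regions, with an interval that spans 0. The few NC reads in listed regions limit what the absence of NC peaks can show.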
